A study of Mus musculus with 6 samples.

Results

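The transcripts of the NRF2 and KEAP1 system and of the antioxidant enzymes around it were followed in hippocampus: 10 genes, taken by gene name from a table of 32201 genes. They are the regulators Nfe2l2 (which encodes NRF2) and Keap1, the NRF2 targets Hmox1, Nqo1, Gclc and Gclm, and the enzymes Sod1, Sod2, Cat and Gpx4. All libraries came from male C57BL/6N mice, an inbred strain, aged 8 weeks, and all mice had gone through chronic unpredictable mild stress, a changing schedule of mild stressors used to model depression. The mice of 3 libraries were treated with baicalin, a flavone glucuronide of Scutellaria baicalensis root, at 20 mg/kg, and those of the other 3 received saline. The comparison is therefore between stressed mice with and without the compound; unstressed mice are not analysed here. The labels do not tie each library to its own mouse, and every p-value here therefore reflects spread among libraries, which may be technical. In this bulk tissue, fewer cells of a type and less RNA per cell cannot be told apart.

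NRF2 is a transcription factor of the cap'n'collar family that binds antioxidant response elements in partnership with small MAF proteins. KEAP1, an adaptor of a CUL3 ubiquitin ligase, holds NRF2 in the cytoplasm and marks it for the proteasome; oxidants and electrophiles modify cysteines of KEAP1, and NRF2 then escapes and accumulates. Control of NRF2 is thus largely at the level of the protein, and target transcripts are the usual readout of its activity. In brain, this programme is best known from astrocytes, which supply glutathione precursors to neurons.

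Antioxidant response elements share the core TGACNNNGC, which was searched on both strands of RefSeq promoter windows (GRCm38.p6, 250 bases before to 50 after each start). The table held 11 windows for 8 of the 10 genes; Hmox1 and Gclc were not among them. The core was present in 3 of these 8 genes (Nfe2l2, Gclm and Sod1), and in 14.0% of the 27025 genes of the table or 12.4% of its 32851 windows. The AP-1 sequence TGANTCA, with which the core can overlap, was in none of the 11 windows and in 7.81% of all windows. The upstream stretches with a match are shown for Gclm, Sod1 and Nfe2l2. Capitals mark the core, which in Gclm and Sod1 reads on the opposite strand. Positions of matches are counted from the RefSeq start of each window. The Gclm stretch is chr3:122245307-122245556 (plus strand), with the match at -134 to -126. The Sod1 stretch is chr16:90220512-90220753 (plus strand), with the match at -56 to -48. This stretch stops before the gene start of the deposited table (90220754) and short of the RefSeq start, and the match is at its bases 195 to 203. The Nfe2l2 stretch is chr2:75704854-75704913 (minus strand), the far end of its window, with the match at -240 to -232. A match describes the letters in the window and does not show a binding site. Sequence beyond the windows was not searched, so a gene without a match may hold the core farther from its start.
Gclm: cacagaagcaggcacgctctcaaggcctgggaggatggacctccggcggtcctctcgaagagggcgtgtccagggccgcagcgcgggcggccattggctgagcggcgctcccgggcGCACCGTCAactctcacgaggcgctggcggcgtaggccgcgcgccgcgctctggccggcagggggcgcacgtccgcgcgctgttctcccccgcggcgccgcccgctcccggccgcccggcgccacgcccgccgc
Sod1: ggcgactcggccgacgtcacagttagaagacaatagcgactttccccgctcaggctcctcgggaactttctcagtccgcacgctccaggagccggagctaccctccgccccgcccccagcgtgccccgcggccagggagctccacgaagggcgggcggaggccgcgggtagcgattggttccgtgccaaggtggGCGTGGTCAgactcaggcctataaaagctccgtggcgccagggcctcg
Nfe2l2: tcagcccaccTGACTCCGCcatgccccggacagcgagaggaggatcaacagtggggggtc

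Library totals were 61303274 to 64983755 counts with baicalin and 65989141 to 67957752 with saline, and counts of the 10 genes ran from 241 to 13395 per library. Neuronal and astrocytic markers were abundant in all 6 libraries, Snap25 at 360 to 383 FPKM and Gfap at 73.7 to 89.0 FPKM. The summed levels of 11 marker lists (neurons, hippocampal subfields, glia, vessels, blood, choroid plexus and meninges) overlapped between groups in every case, and no listed marker was at 0 in all libraries. Dentate granule cell markers nevertheless leaned higher with baicalin (4 of 4 positive, median log2 change 0.33) and those of CA1 pyramidal cells lower (1 of 4 positive, median -0.31), with none called in edgeR. Summed dentate markers were 260.1 to 279.7 CPM with baicalin and 254, 161 and 270.3 CPM in saline libraries 1 to 3. Summed CA1 markers were 432 to 547 CPM with baicalin and 526 to 584 CPM with saline. Endothelial markers also leaned lower with baicalin (1 of 5 positive, median -0.15), none called. The part of these subfield and endothelial markers in the changes of the 10 genes was not tested. Markers of the choroid plexus and meninges were mixed. Folr1 (up to 0.478 FPKM) and Col1a1 (up to 0.961 FPKM) stayed under 1 FPKM throughout. Ttr of the choroid plexus ran from 7.76 to 59.5 FPKM and Dcn of the meninges from 2.29 to 4.63 FPKM. Choroid plexus markers leaned higher with baicalin (2 of 2 tested positive, median log2 change 0.45). Their sums were 59.9, 119.8 and 57.9 CPM in baicalin libraries 1 to 3 and 42.1 to 85.7 CPM with saline. The part of such tissue in the changes of the 10 genes was not tested.

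All 10 genes passed the filter of a mean of at least 1 FPKM (a level scaled for transcript length and library size). None of the 10 passed an adjusted p of 0.05 by edgeR's quasi-likelihood test, where 0.0456% of the 13153 genes tested did (0.0152% higher and 0.0304% lower with baicalin). At an unadjusted p under 0.05 there was 1 of the 10, Sod1, against 11.8% of all genes tested (6.34% higher and 5.46% lower); DESeq2 and limma also called none of the 10. Log2 changes (baicalin minus saline) were positive for 6 genes and negative for 4, with a median of 0.02 against -0.00063 over all genes tested. TPM scaling, in which each library is divided by its summed FPKM, moved the median of all genes tested to -0.078, and the 10 genes then had a median of -0.054, with 3 positive and 7 negative. Values under TPM scaling are to be read against that shift of all genes. For 7 of the 10 the change was smaller than 0.1 on the log2 scale. The baicalin and saline libraries did not overlap in 4 genes (Gclm, Sod1, Sod2 and Gpx4, on normalized counts), all higher with baicalin, against 19.4% of all genes tested (9.93% higher and 9.52% lower).

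**Figure D1:**
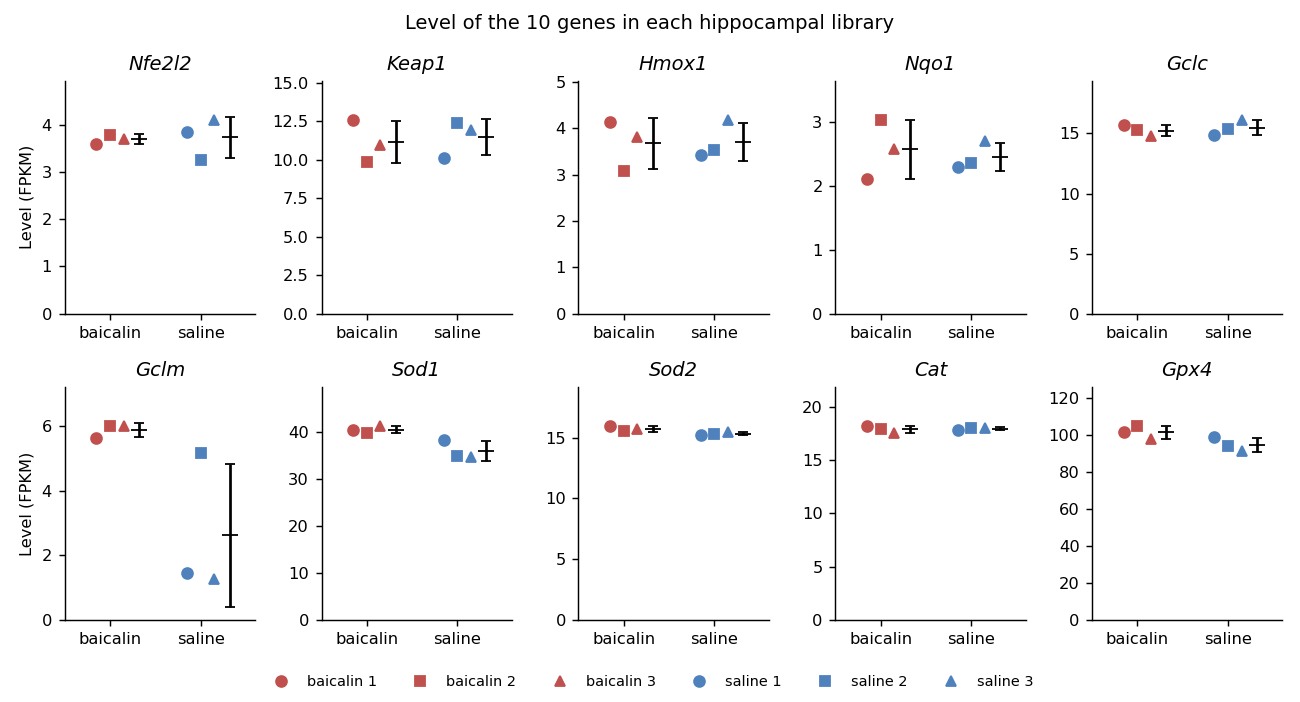
Level in FPKM of each of the 10 genes in the 3 baicalin and 3 saline libraries; symbols mark the library number and black bars the mean ± SD (n = 3 each), with each vertical axis starting at 0. Gclm is low in saline libraries 1 and 3 only (1.44 and 1.26 FPKM, against 5.18 in saline library 2 and 5.64 to 6.00 with baicalin).

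By level, Gpx4 led at a mean of 98.0 FPKM over the 6 libraries, followed by Sod1 (38.3 FPKM), Cat (17.9), Sod2 (15.5), Gclc (15.4) and Keap1 (11.3). Below these lay Gclm (4.25 FPKM), Nfe2l2 (3.72), Hmox1 (3.70) and Nqo1 (2.51). Most neighbours in this order had ranges that did not overlap. The exceptions were Sod2 and Gclc, Gclm and Nfe2l2, and Nfe2l2 and Hmox1, whose ranges overlapped. Nqo1, a classical readout of NRF2, had the lowest mean and was below Hmox1 in all 6 libraries, although Gclm was lower still in saline libraries 1 and 3. Nfe2l2 was above Hmox1 in only 2 of 6 libraries.

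Neither regulator showed a difference beyond the spread between libraries (adjusted p = 0.977 for Nfe2l2 and 0.916 for Keap1 in edgeR; gene coordinates are in mm10). Nfe2l2 (ENSMUSG00000015839, chromosome 2, 75675513 to 75704641) stood at 3.60, 3.8 and 3.70 FPKM with baicalin and 3.85, 3.27 and 4.11 FPKM with saline. The baicalin libraries all lay inside the saline range. Its log2 change was -0.0084 (95% interval -0.25 to 0.23), a fold between 0.842 and 1.17.

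Keap1 (ENSMUSG00000003308, chromosome 9, 21229730 to 21239361) had 12.6, 9.86 and 11 FPKM with baicalin and 10.1, 12.4 and 11.9 FPKM with saline. Both groups held a low and a high library, and they overlapped almost fully. Its log2 change was -0.04 (95% interval -0.31 to 0.24). An annotated gene on the other strand, Gm16754, overlaps Keap1, and its counts were 199, 233 and 244 with baicalin and 174, 23 and 226 with saline. It was lowest in saline library 2, where Keap1 had its highest saline count (4394). Keap1 was nearly as high, at 4340, in saline library 3 and baicalin library 1, where Gm16754 had 226 and 199. The lowest count of Keap1 was 3431, in baicalin library 2. The exons of the pair were not compared and no strand setting is stated for the counting, so whether their reads were kept apart is not known. The part of Gm16754 in the Keap1 values was not tested.

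Within each library, a comparison that does not depend on scaling, Nfe2l2 had 0.286, 0.385 and 0.337 times the FPKM of Keap1 with baicalin and 0.380, 0.264 and 0.345 times with saline. Mean log2 ratios were -1.58 ± 0.21 in baicalin libraries and -1.62 ± 0.27 in saline libraries (SD, n = 3 each; exact two-sided permutation p = 0.9, adjusted over 5 ratios 0.9). The order of the groups turned without baicalin library 2 (a log2 difference of -0.07) or saline library 2 (-0.12), against 0.04 with all libraries.

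Among the inducible targets, Hmox1 encodes heme oxygenase 1, which breaks heme down to biliverdin, carbon monoxide and iron. Hmox1 (ENSMUSG00000005413, chromosome 8, 75093621 to 75100589) had 4.15, 3.08 and 3.82 FPKM with baicalin and 3.42, 3.54 and 4.19 FPKM with saline. The saline values lay inside the baicalin range except for library 3, the highest of all 6. Its log2 change was -0.0056 (95% interval -0.36 to 0.35).

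Nqo1 encodes a quinone reductase that makes hydroquinones by transfer of an electron pair. Nqo1 (ENSMUSG00000003849, chromosome 8, 107388225 to 107403206) had 2.11, 3.04 and 2.58 FPKM with baicalin and 2.29, 2.35 and 2.70 FPKM with saline. Both the lowest and the highest library were from baicalin-treated mice. The log2 change was 0.08 (95% interval -0.31 to 0.47), and -0.05 without baicalin library 2.

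The ratio of Hmox1 to Nqo1 was uneven with baicalin, at 1.97, 1.01 and 1.48, and close to constant with saline, at 1.49, 1.5 and 1.55. In baicalin library 2, Hmox1 was at its lowest and Nqo1 at its highest of all libraries. Mean log2 ratios were 0.52 ± 0.48 in baicalin libraries and 0.60 ± 0.03 in saline libraries (SD, n = 3 each; exact two-sided permutation p = 0.7, adjusted 0.875). Without baicalin library 2 the difference was 0.17, against -0.08 with all libraries.

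Gclc and Gclm encode the catalytic and modifier subunits of glutamate-cysteine ligase, the rate-limiting enzyme of glutathione synthesis, and Gclm varied far more between libraries than Gclc. Gclc (ENSMUSG00000032350, chromosome 9, 77754535 to 77794485) had 15.7, 15.3 and 14.8 FPKM with baicalin and 14.9, 15.4 and 16.1 FPKM with saline. The groups overlapped, with a log2 change of -0.02 (95% interval -0.14 to 0.11).

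Gclm (ENSMUSG00000028124, chromosome 3, 122245557 to 122270732) had 5.64, 5.99 and 6.00 FPKM with baicalin, against 1.44, 5.18 and 1.26 FPKM with saline. In counts this was 2609, 2796 and 2644 with baicalin and 683, 2466 and 614 with saline. Saline library 2 was close to the baicalin libraries, at 88.0% of their mean normalized count, while saline libraries 1 and 3 were at 24.3% and 21.3% of it. The saline group thus held a high library and a low pair, and its coefficient of variation was 84.6%, against 3.77% with baicalin.

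Mean normalized counts of Gclm were 42.8 ± 1.61 CPM (counts scaled to a common library size) in baicalin libraries and 19.0 ± 16.1 CPM in saline libraries (SD, n = 3 each). The log2 change was 1.17 ± 0.53 (SE; 95% interval -0.11 to 2.44), a fold of 2.25, and it did not pass (adjusted p = 0.446 in edgeR). A single library decided the call: without saline library 2 the log2 change was 2.13 and adjusted p = 0.00335 in edgeR, while over all 18 alternatives that kept the gene adjusted p ran from 0.00335 to 0.677. Without saline library 1 or 3 the log2 change was 0.87 and 0.83. The change was positive in all 18.

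A spread of this size within the saline group was uncommon. Of all genes tested, 1.72% had a highest saline library at least 3-fold above the lowest (2.15% among the baicalin libraries), and 134 genes, Gclm included, had a saline range as wide as that of Gclm (4.14-fold). The other 9 genes had saline ranges of 1.02-fold to 1.25-fold.

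The deposited table gives Gclm 6 transcripts and values for the whole gene. In GENCODE M21 the full-length transcript Gclm-201 has 7 exons and 5589 bases, of which exon 7 (122266228 to 122270732, 4505 bases) makes up 80.6%. Gm17494, annotated on the other strand, spans 122255958 to 122293720 and overlaps Gclm, and Gm6061, on the same strand, lies inside Gclm. No exon of Gclm-201 overlaps an exon of Gm17494. The exons of Gclm and Gm17494 meet only at exon 3 of the shorter transcript Gclm-202 (122256676 to 122256971, 296 bases). Gm17494 had 5208, 6156 and 6036 counts with baicalin and 5823, 5686 and 5981 with saline, so in saline libraries 1 and 3, where Gclm was low, it lay within its baicalin range. Gm6061 had 7 counts in saline library 1 and 0 in the others. The summed endothelial markers were also apart in the low pair, at 139 and 157 CPM in saline libraries 1 and 3, against 127 to 129 CPM with baicalin and 127 CPM in saline library 2. The summed dentate granule cell markers were lowest in saline library 2 (161 CPM), against 260.1 to 279.7 CPM with baicalin and 254 and 270.3 CPM in saline libraries 1 and 3. Other lists also differed between the saline libraries. Summed meningeal fibroblast markers were 55.7, 48.5 and 86.4 CPM in saline libraries 1 to 3, against 51.9 to 55.1 CPM with baicalin. Summed blood markers were 300, 177 and 409 CPM in saline libraries 1 to 3, against 213 to 403 CPM with baicalin. The part of these marker lists in the Gclm values was not tested. Counts per exon or per transcript are not analysed here, and the part of transcript assignment in the Gclm values was not tested.

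**Figure D2:**
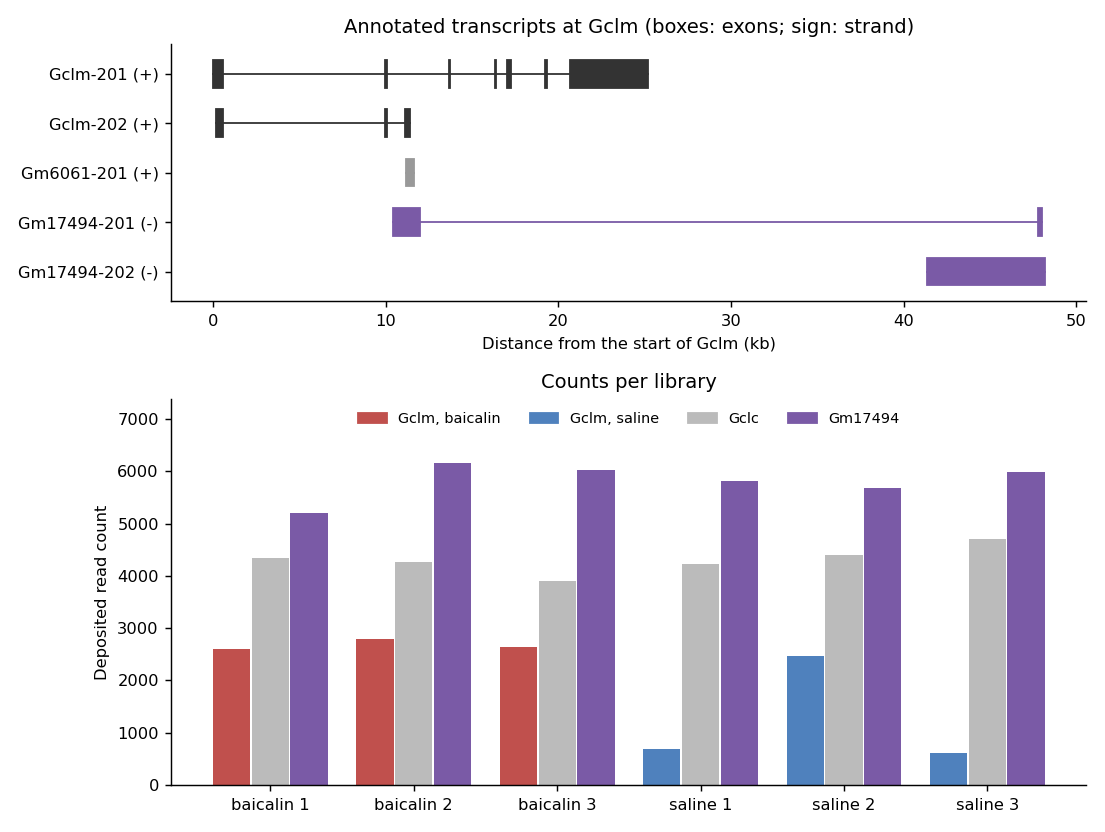
Top, annotated transcripts at Gclm and its overlapping genes by distance from the start of Gclm in kb (boxes are exons). Bottom, deposited read counts of Gclm, its partner subunit Gclc and the overlapping Gm17494 in each library: Gclm is at 683 and 614 in saline libraries 1 and 3 and at 2466 to 2796 in the other libraries, while Gclc (3895 to 4710) and Gm17494 (5208 to 6156) stay level.

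The ratio of Gclc to Gclm in FPKM was 2.78, 2.55 and 2.46 with baicalin and 10.4, 2.98 and 12.9 with saline. Each baicalin library was below each saline library, saline library 2 by little. Mean log2 ratios were 1.37 ± 0.09 in baicalin libraries and 2.88 ± 1.14 in saline libraries (SD, n = 3 each). The exact two-sided permutation p was 0.1, the smallest that 3 against 3 libraries can give, and 0.167 adjusted over the 5 ratios.

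Sod1, which encodes the cytosolic copper-zinc superoxide dismutase, was the member with the smallest p. Sod1 (ENSMUSG00000022982, chromosome 16, 90220754 to 90226329) had 40.4, 39.8 and 41.4 FPKM with baicalin, against 38.4, 34.9 and 34.7 FPKM with saline. The groups did not overlap, with saline library 1 nearest to the baicalin libraries. The log2 change was 0.18 ± 0.05 (SE; 95% interval 0.05 to 0.30), a fold of 1.13, and it did not pass after adjustment (unadjusted p = 0.0121, adjusted p = 0.351 in edgeR). It was positive in 19 of 19 alternatives, from 0.10 under TPM scaling (median of all genes -0.078) to 0.23 without saline library 1, and was 0.18 with the trend on gene length removed. The mitochondrial share of counts was 7.71 to 8.69% in the baicalin libraries, against 7.18 to 7.82% in the saline libraries, and its part in the Sod1 difference was not tested. Scaf4 overlaps the end of Sod1 on the other strand, with 1453 to 1794 counts with baicalin and 1754 to 1919 with saline, against 11502 to 11795 and 10477 to 11494 for Sod1.

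Sod2 encodes the manganese superoxide dismutase of the mitochondrial matrix and was among the steadiest of the 10. Sod2 (ENSMUSG00000006818, chromosome 17, 13006846 to 13037398) had 16.0, 15.5 and 15.7 FPKM with baicalin and 15.2, 15.3 and 15.5 FPKM with saline. The groups were apart by a narrow margin. The log2 change was 0.05 (95% interval -0.04 to 0.13; adjusted p = 0.632 in edgeR). It was -0.03 under TPM scaling, where the median of all genes was -0.078, and 0.11 with the length trend removed (adjusted p = 0.494 by limma).

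The ratio of Sod1 to Sod2 was 2.53, 2.57 and 2.63 with baicalin and 2.52, 2.28 and 2.25 with saline. Saline library 1 lay just under the baicalin libraries. Mean log2 ratios were 1.37 ± 0.03 in baicalin libraries and 1.23 ± 0.09 in saline libraries (SD, n = 3 each; exact two-sided permutation p = 0.1, the smallest possible, adjusted 0.167).

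The peroxide-removing enzymes are catalase (Cat), a peroxisomal heme enzyme, and GPX4, a selenoenzyme that reduces lipid hydroperoxides and guards against ferroptosis. Cat (ENSMUSG00000027187, chromosome 2, 103453849 to 103485160) had 18.2, 17.9 and 17.5 FPKM with baicalin and 17.8, 18.0 and 18.0 FPKM with saline. All saline values fell within the baicalin range, with a log2 change of 0.0026 (95% interval -0.11 to 0.12).

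Gpx4 (ENSMUSG00000075706, chromosome 10, 80047166 to 80056439) had 101, 105 and 97.7 FPKM with baicalin and 98.8, 93.8 and 91.2 FPKM with saline. In FPKM baicalin library 3 lay under saline library 1, and in normalized counts the groups did not overlap, at 201.9 ± 4.98 CPM in baicalin libraries and 188 ± 7.58 CPM in saline libraries (SD, n = 3 each). The log2 change was 0.11 ± 0.04 (SE; 95% interval -0.0013 to 0.21; adjusted p = 0.428 in edgeR) and was 0.03 under TPM scaling, against -0.078 for the median of all genes, and 0.05 with the length trend removed. The processed pseudogene Gpx4-ps2 had 1854, 2070 and 2012 counts with baicalin and 1980, 1910 and 1814 with saline; reads it shares with Gpx4 make both values uncertain.

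The ratio of Cat to Gpx4 was 0.180, 0.171 and 0.180 with baicalin and 0.180, 0.192 and 0.198 with saline. In log2 terms the means were -2.50 ± 0.04 in baicalin libraries and -2.40 ± 0.07 in saline libraries (SD, n = 3 each), and the groups did not overlap, saline library 1 being nearest to the baicalin libraries. The exact two-sided permutation p was 0.1, the smallest possible, and 0.167 adjusted.

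**Figure D3:**
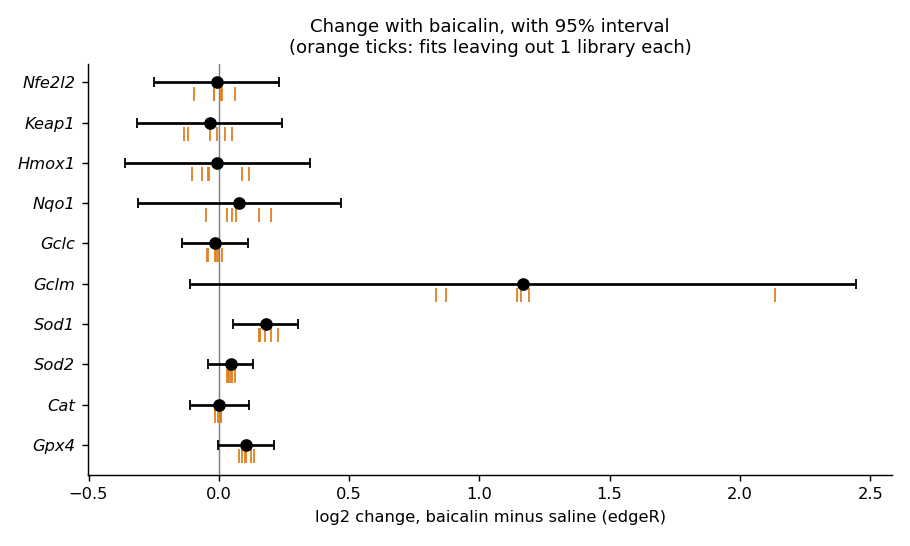
Log2 change of each gene, baicalin minus saline, from edgeR, with its 95% interval (black) and the 6 fits that each leave out 1 library (orange ticks). The interval of Gclm spans -0.11 to 2.44 and its value is 2.13 without saline library 2; the interval of Sod1 runs from 0.05 to 0.30, and the other intervals include 0.

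**Figure D4:**
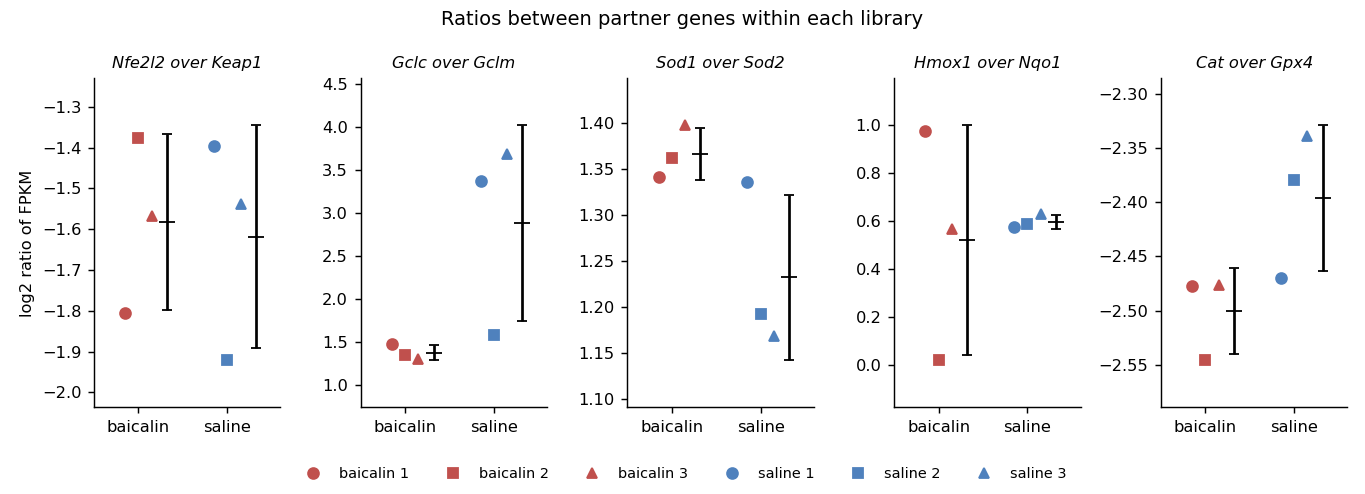
Log2 ratio of FPKM for the 5 pairs of partner genes in each library, with symbols for the library number and black bars for the mean ± SD (n = 3 each); vertical axes differ between panels. Gclc over Gclm is near 1.4 in the baicalin libraries and 1.57 in saline library 2, while saline libraries 1 and 3 are above 3.

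Other proteins that govern NRF2 were measured in a list of 14 genes, of which 12 passed the filter; Maff and Bach2 did not. None passed the adjusted threshold, 4 changes were positive and 8 negative, and the median was -0.02. That median was 0.00086, with a split of 6 to 6, without baicalin library 1, and -0.07 without baicalin library 3. Under TPM scaling it was -0.10, against -0.078 for all genes tested. By the smallest p, those with positive changes were Rbx1, the RING subunit of the KEAP1 and CUL3 ligase, and Sqstm1, the autophagy receptor p62, which competes with NRF2 for KEAP1. Rbx1 averaged 106 ± 3.28 CPM with baicalin and 94.7 ± 3.96 CPM in saline libraries (log2 change 0.16, adjusted p = 0.362 in edgeR). Sqstm1 averaged 435 ± 3.40 CPM with baicalin and 406 ± 7.52 CPM in saline libraries (log2 change 0.10, adjusted p = 0.381 in edgeR; SD, n = 3 each). Those with negative changes were Cul3, the scaffold of that ligase (-0.11), and Mafg, a small MAF partner of NRF2 (-0.07).

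Further NRF2 targets numbered 29, of which 27 passed the filter and none the adjusted threshold. Positive changes were 16 and negative ones 11, with a median of 0.04. Under TPM scaling 13 were positive and 14 negative, with a median of -0.04 against -0.078 for all genes tested, and the list median was 0.0074 with the length trend removed. Taldo1, a transaldolase of the pentose phosphate pathway (0.15), and Fth1, the ferritin heavy chain (0.11), had the smallest p among positive changes. Fth1 was at 0.0074 with the length trend removed and at 0.04 under TPM scaling. Slc7a11, the cystine transporter subunit that feeds glutathione synthesis, had 0.957, 1.18 and 1.17 FPKM with baicalin and 1.54, 1.30 and 2.67 FPKM with saline. The groups did not overlap, and saline library 3 stood well above the rest. Its log2 change was -0.73 ± 0.27 (SE; adjusted p = 0.395 in edgeR), and -0.36 without saline library 3. Ftl1, the ferritin light chain, had 47.8, 57.0 and 51.7 FPKM with baicalin and 113, 59.2 and 51.5 FPKM with saline, a log2 change of -0.51 that was -0.08 without saline library 1. Both ferritin genes have processed pseudogenes, with which reads may be shared.

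All 26 other antioxidant genes passed the filter, none the adjusted threshold. Changes were positive in 18 and negative in 8, with a median of 0.08. Under TPM scaling the split was 13 to 13 with a median of -8e-06, against -0.078 for all genes tested, and with the length trend removed it was 15 to 11 with a median of 0.02. Txn1 (thioredoxin) averaged 60.7 ± 3.46 CPM in baicalin libraries and 53.9 ± 1.56 CPM in saline libraries (SD, n = 3 each), a log2 change of 0.17 that was 0.07 with the length trend removed. Prdx5, a peroxiredoxin of mitochondria and peroxisomes, was at 0.11, and at 0.07 with the length trend removed. On the other side were Glrx3, a glutaredoxin that handles iron-sulfur clusters (-0.14), and Msra, a methionine sulfoxide reductase (-0.09). These values come from lists chosen for the pathway, and 49.8% of all genes tested had a positive change before TPM scaling.

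**Figure D5:**
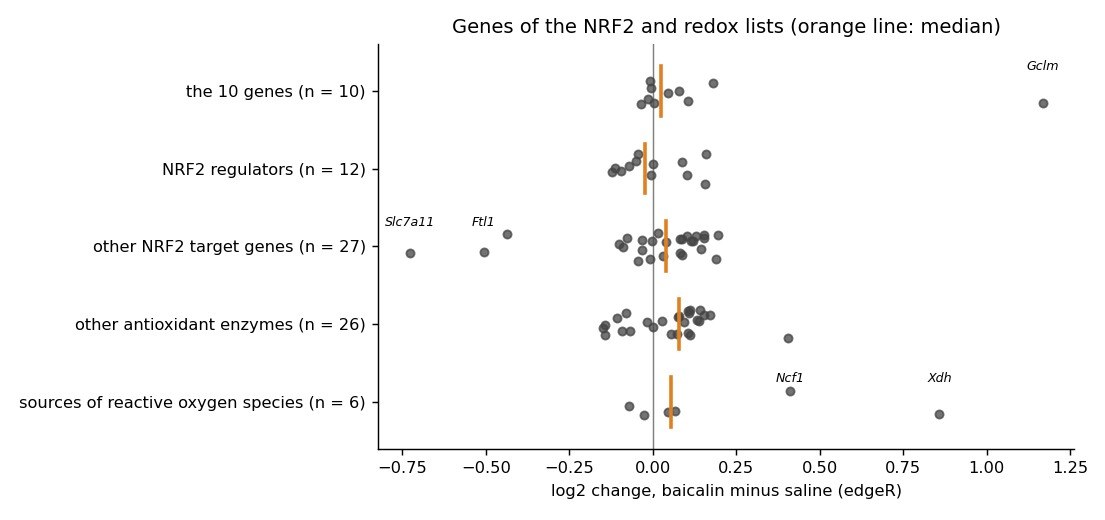
Log2 change, baicalin minus saline, of each tested gene in the 5 NRF2 and redox lists (points), with the median of each list as an orange line; vertical scatter within a list only separates points. List medians lie between -0.02 and 0.08, and Gclm (1.17), Xdh (0.86) and Slc7a11 (-0.73) stand farthest out.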

How the data were processed

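RNA sequencing of rRNA-depleted hippocampal RNA was deposited as a table of 32201 genes with, for each library, a whole-number count and an FPKM value. The deposited counts were taken as not normalized, which their differing totals allow but do not show. The FPKM values, named so per the file headers, are the authors' levels scaled to transcript length and library size. Per the submitters' processing notes, bcl2fastq 2.0, HISAT2, StringTie, DESeq2 and limma were used with build mm10; their roles, options and strand setting are unstated. The table's other 12 columns of sample values belong to samples without labels here and were left out.

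The 13153 genes averaging 1 FPKM or more were fitted with edgeR 4.0.16 (R 4.3.3), TMM scaling, a treatment term and the quasi-likelihood test, with Benjamini-Hochberg adjustment over all genes tested and a threshold of 0.05. Standard errors are the log2 change over the square root of F, and 95% intervals use the total degrees of freedom of the moderated fit. The fit was tested on simulated data. CPM are counts divided by TMM-scaled library size. Ratios between partner genes were compared by exact permutation over libraries. Alternatives covered filters, scaling, DESeq2 1.42.0, limma 3.58.1 on log2(FPKM + 1) and log2(FPKM + 0.1), a robust variance, a length trend (lowess span 0.3), a replicate block and each library left out. The genes and lists were chosen with earlier results of these data known. Named list genes are the pair with the smallest unadjusted p per direction and list, of which 1 is not reported here; overlapping genes and pseudogenes were added after their values were seen. Gene coordinates are those of the deposited table, promoter windows and their starts are from RefSeq, and transcripts are from GENCODE M21.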

Additional observations from a re-analysis of the deposited data

How the results depend on the processing

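With edgeR's quasi-likelihood test, 6 of 13153 genes were called, none of them among the 10. DESeq2 called 211 genes, also none of the 10. Whether library numbers mark pairs was not settled: same-numbered libraries correlated only weakly in their deviations, at 0.0799, 0.0472 and -0.027. For baicalin libraries 1 and 2 the same-numbered saline library was the nearest, while baicalin library 3 was nearer to saline library 2 (0.0506). Limma without a block called 8 genes with a pseudocount of 1 and 4 with 0.1, none of the 10. With a replicate block edgeR called 0 genes (1120 at an unadjusted p under 0.05), again none of the 10. The block turned no direction among the 10 and left Gclm at 1.49. Leaving out each library gave 2 (without baicalin library 3) to 39 called genes (without baicalin library 1), with 10 without saline library 2 and 14 without saline library 3, and 0 to 1 called members, the 1 being Gclm without saline library 2 (log2 change 2.13). The median of the 10 log2 changes was 0.02 as reported, -0.054 under TPM scaling (where the median of all genes tested was -0.078) and -0.0085 with the length trend removed, and 0.020 to 0.071 with a library left out.

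Gclm, Sod1 and Gpx4 were positive under every alternative run for them; the filter of at least 5 FPKM left out Nfe2l2, Hmox1, Nqo1 and Gclm. Changes near 0 turned sign; under TPM scaling this goes with the shift of all genes, and for the other settings the cause was not tested. Cat was at -0.00045 and -0.0063 with filters of at least 0.1 and 5 FPKM, -0.0070 by library size, -0.075 under TPM scaling, -0.0043 and -0.0045 by limma with pseudocounts of 1 and 0.1, and -0.028 with the length trend removed. Under TPM scaling Nqo1 was at -2.2e-05 and Sod2 at -0.032; with the length trend removed Nqo1 was at -0.011. Upper quartile scaling put Nfe2l2 at 8.1e-06 and Hmox1 at 0.0024. With a library left out, ranges were -0.095 to 0.063 for Nfe2l2, -0.14 to 0.051 for Keap1, -0.10 to 0.11 for Hmox1, -0.049 to 0.20 for Nqo1, -0.044 to 0.013 for Gclc and -0.013 to 0.0084 for Cat. The log2 ratio difference ran from -0.12 to 0.15 for Nfe2l2 over Keap1 and from -0.31 to 0.17 for Hmox1 over Nqo1. The other 3 ratios kept their sign.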

Other observations

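Enzymes that produce reactive oxygen species were measured beside the defence genes. Of 13 listed genes 6 passed the filter; among those below it were the NADPH oxidase genes Cybb, Nox1, Nox4, Duox1 and Duox2 and the subunit gene Ncf4, at means of up to 0.288 FPKM. None of the 6 passed in edgeR, and the median log2 change was 0.06. Under TPM scaling it was -0.02, with 2 positive and 4 negative, against -0.078 for all genes tested, and it was 0.01 without saline library 1 and 0.12 without saline library 3. Xdh, which encodes xanthine dehydrogenase, had 1.29, 1.26 and 1.6 FPKM with baicalin and 0.683, 0.859 and 0.753 FPKM with saline. Its saline values were all under the filter level of 1 FPKM and its baicalin values all above it. Xdh thus passed the filter only through the group where it was high, and its separation is to be read with that limit. The groups did not overlap, and the log2 change was 0.86 ± 0.14 (SE, adjusted p = 0.213 in edgeR). Without any filter the log2 change was 0.86 (adjusted p = 0.396 in edgeR). Xdh passed in 1 of 18 alternatives, DESeq2, with adjusted p from 4.7e-05 there to 0.576. Ncf1, an organizer subunit of the phagocyte NADPH oxidase, was at 0.41 (adjusted p = 0.416 in edgeR), and at 0.27 without saline library 1. Cyba, the small subunit of the NADPH oxidase membrane complex, was at -0.07, with -0.19 without baicalin library 1 and 0.01 without saline library 3.

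Profiles over the 6 libraries were compared, as the root mean square difference of centred log2 CPM. The profiles nearest to Nfe2l2 were those of Bach1 (0.061), which encodes a repressor at the same response elements, G6pdx (0.071) and Prdx1 (0.079), against a median of 0.13 over the 80 other tested genes of these lists. Nearest to Hmox1 were Akr1b3 (0.078), Keap1 (0.093) and Cyba (0.095), against a median of 0.17. A profile without any variation would lie 0.092 from Nfe2l2 and 0.14 from Hmox1, nearer than the median gene in each case. The genes named for each lay nearer than this flat profile, so their profiles leaned the same way in these libraries. They were picked as the nearest of 80, and a pick of this kind favours such likeness. These distances are descriptions over 6 libraries and carry no test.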
